A study of Mus musculus with 4 samples.

Results

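The vascular endothelial growth factor (VEGF) and angiopoietin genes were followed by single-cell RNA sequencing (scRNA-seq) through the days after injury of tibial muscle in mice that form heterotopic ossification, bone outside the skeleton. The set held 5 ligand genes of the VEGF family (Vegfa, Vegfb, Vegfc, Vegfd and Pgf), 2 VEGF receptor genes (Flt1 and Kdr), 2 angiopoietin ligand genes (Angpt1 and Angpt2) and their receptor gene Tek. They were chosen by gene symbol, and all 10 were among the 32285 genes listed and had counts in every library. All mice, the Uninjured controls included, were C57BL/6 animals aged 6-8 weeks that carried the Nse-Bmp4 transgene, in which a rat neuron-specific enolase promoter drives murine Bmp4. Muscles were taken Uninjured or on day 1, 3 or 7 (1, 3 and 7 dpi) after injection of cardiotoxin, a snake venom toxin that destroys muscle fibres. For each of these 4 groups, 3 tibial muscles were pooled into 1 library on the 10x Genomics platform, which counts RNA molecules by unique molecular identifiers (UMIs). With 1 library per time point, no difference between time points could be tested against the spread between animals. Every interval given here is a 95% interval for counting error only.

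VEGF-A is the main driver of vessel growth and signals through KDR (VEGFR2), while FLT1 (VEGFR1) binds VEGF-A tightly and limits how much reaches KDR. VEGF-B and placental growth factor, the product of Pgf, bind FLT1, whereas VEGF-C and VEGF-D act mainly on lymphatic vessels. Angiopoietin-1, made by cells around vessels, activates the endothelial receptor TEK (TIE2) and keeps vessels quiet, and angiopoietin-2 counters it during vessel remodelling. Tek-Cre mice were used in the same study to trace mesenchymal cells, which gives the Tek level outside the endothelium a direct bearing on its design.

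The gene IDs were matched to an annotation of mouse genome build GRCm38, which gives the following spans, while the annotation release behind the counts is not given in the sources used here. Vegfa lies at chr17:46016993-46032369 on the minus strand, Vegfb at chr19:6982473-6987651 (minus), Vegfc at chr8:54077606-54187096 (plus), Vegfd at chrX:164373378-164402650 (plus) and Pgf at chr12:85166635-85177790 (minus). Flt1 lies at chr5:147561604-147726011 (minus), Kdr at chr5:75932827-75978458 (minus) and Tek at chr4:94739289-94874976 (plus). Angpt1, at chr15:42424723-42676977 (minus), overlaps Gm17473 on the opposite strand, and Angpt2, at chr8:18690263-18741562 (minus), overlaps Mcph1 on the opposite strand, so a read counted without regard to strand could fall to either gene. The windows of 250 bases upstream of the RefSeq starts of the 3 receptor genes (GRCm38.p6) are shown because these genes shared a high level in blood endothelial cells yet differed in mesenchymal cells. Capitals mark the ETS core GGAAG, read on either strand (CTTCC), since ETS factors bind many endothelial promoters.
Tek, chr4:94739039-94739288, plus strand: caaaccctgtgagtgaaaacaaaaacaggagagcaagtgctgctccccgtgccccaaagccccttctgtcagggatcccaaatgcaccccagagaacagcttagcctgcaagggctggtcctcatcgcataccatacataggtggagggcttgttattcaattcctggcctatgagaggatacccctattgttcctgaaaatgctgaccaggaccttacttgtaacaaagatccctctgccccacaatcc
Kdr, chr5:75978456-75978705, minus strand: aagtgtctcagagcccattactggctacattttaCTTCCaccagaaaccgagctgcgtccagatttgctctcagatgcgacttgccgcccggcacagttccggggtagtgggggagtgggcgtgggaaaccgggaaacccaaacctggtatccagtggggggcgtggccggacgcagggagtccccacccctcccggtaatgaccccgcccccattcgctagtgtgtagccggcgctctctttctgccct
Flt1, chr5:147726012-147726261, minus strand: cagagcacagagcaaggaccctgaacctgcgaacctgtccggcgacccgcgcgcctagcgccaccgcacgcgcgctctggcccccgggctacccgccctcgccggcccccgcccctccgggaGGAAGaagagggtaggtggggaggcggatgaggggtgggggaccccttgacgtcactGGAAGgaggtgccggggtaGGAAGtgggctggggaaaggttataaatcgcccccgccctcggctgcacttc
The core occurred 3 times in the Flt1 window, 1 time in the Kdr window and 0 times in the Tek window. It was present in 64.1% of 32851 such windows over all genes, so its presence is a description of these letters and sets these genes apart in no way. Windows were matched for 8 of the 10 genes, and none was used for Angpt1 or Angpt2.

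After filtering, 10307, 9641, 12604 and 20301 cells were kept from the Uninjured, 1, 3 and 7 dpi libraries, with median UMIs per barcode before filtering of 8629, 5562, 4214 and 3083. The libraries shared between 30 and 95 cell barcodes per pair. Cells were assigned to classes by counting markers, and levels are given in CPM, a gene's share of the summed UMIs of a class times 1000000. Mesenchymal cells, gated by Pdgfra, Prrx1 and 6 further markers, numbered 8330, 3756, 5961 and 8189. Chondrocytes were almost all from the 7 dpi library, with 5296 cells. Blood endothelial cells were few, at 23, 73, 133 and 124 cells, and mural cells (pericytes and vascular smooth muscle) numbered 125, 20, 27 and 585. B cells, which should lack most of these genes, served as the measure of RNA picked up from other cells.

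**Figure D1:**
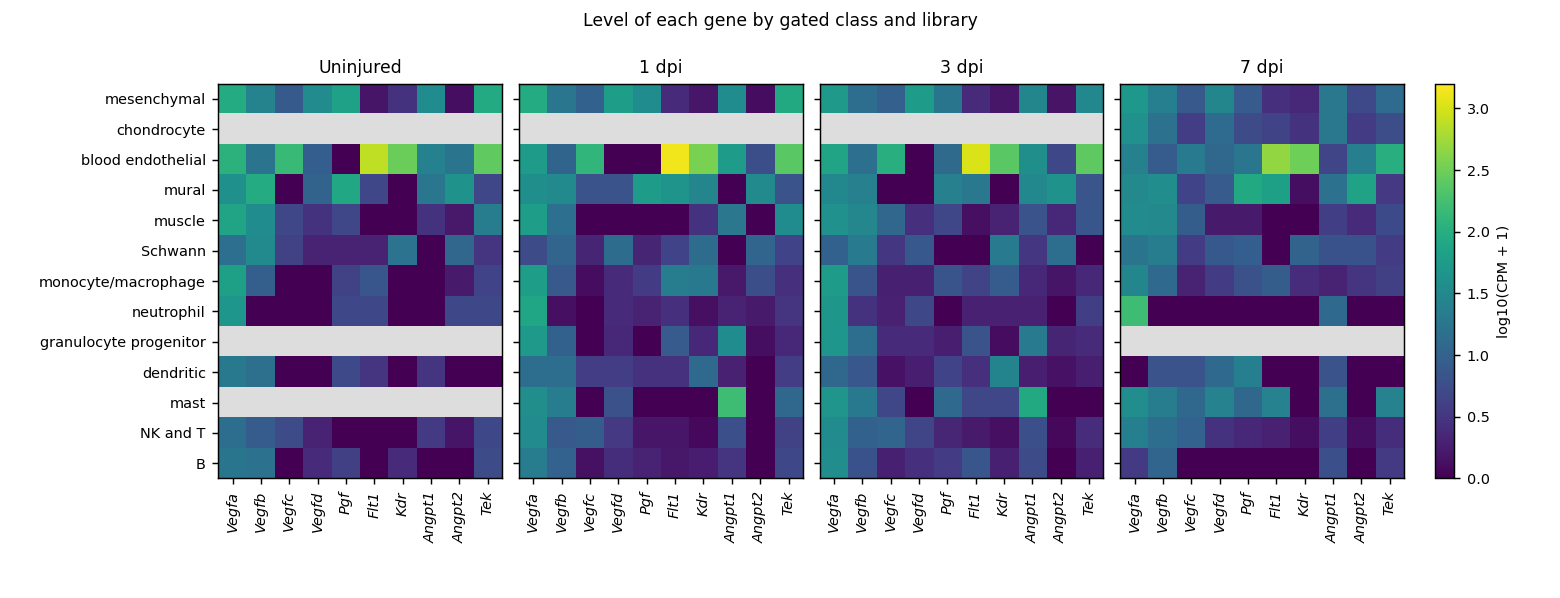
Heat maps of the level of each gene (columns) in each gated cell class (rows) in the 4 libraries, with colour giving log10(CPM + 1) and grey marking classes of under 20 cells. Flt1 and Kdr stood out in blood endothelial cells in all 4 libraries, whereas Vegfa was spread over many classes and Tek was high in both mesenchymal and blood endothelial cells.

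In mesenchymal cells, which include the progenitors of the ectopic cartilage, the genes followed different courses after injury, with no common course for ligands or receptors. Pgf and Tek fell, Angpt2 rose at 7 dpi from a trace level, and Vegfa was lower at 3 and 7 dpi without reaching 2-fold. Over the whole class, Vegfd was higher at 1 and 3 dpi and near its starting level at 7 dpi. That return at 7 dpi was not seen inside the main subsets described below. A gene was called when its CPM differed at least 2-fold among genes with at least 20 UMIs over both libraries. At 7 dpi against Uninjured, 4 of the 10 genes were called, 2 higher (Flt1, Angpt2) and 2 lower (Pgf, Tek), beside 29.4% of all genes tested. At 3 dpi 4 of 10 were called, Flt1 higher and Pgf, Kdr and Tek lower, beside 24.5% of all genes. At 1 dpi 2 of 10 were called, Flt1 higher and Kdr lower, beside 15.8% of all genes. These counts include the Flt1 and Kdr calls, which lay at trace levels and are not read as expression below. The counts were therefore not read as a result about the set. The median log2 ratio of the 10 genes was −0.03, −0.51 and −0.41 at 1, 3 and 7 dpi, while that of all genes tested was 0.17, 0.10 and 0.08.

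Tek, the angiopoietin receptor gene, was counted mostly outside the endothelium. In mesenchymal cells its level was 90.5 CPM (88.4 to 92.7) in the Uninjured library, 86.0 CPM at 1 dpi, 30.3 CPM at 3 dpi and 12.3 CPM (11.4 to 13.3) at 7 dpi. The Uninjured and 1 dpi levels differed by 1.05-fold, and both later levels lay far below them. Tek was 2.99-fold lower (2.83 to 3.15) at 3 dpi and 7.36-fold lower (6.79 to 7.99) at 7 dpi than in the Uninjured library. A Tek UMI was present in 50.8%, 43.9%, 20.1% and 6.56% of mesenchymal cells, whose median depths were 9187, 8200, 6182 and 4434 UMIs. After each cell was thinned to 1000 UMIs, the shares were 9.0%, 9.28%, 4.47% and 1.45%. In B cells the shares were 1.40%, 0.87%, 0.24% and 0.46% at median depths of 2455, 2844, 1760 and 1457 UMIs, and 0.93%, 0.29%, 0% and 0.49% after thinning. The measured mesenchymal shares were thus above those of B cells in all 4 libraries, before and after thinning. At 3 and at 7 dpi the B cell share rests on 1 Tek UMI. The B cells therefore set no tight limit on background for Tek there.

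Mesenchymal cells held 98.1%, 93.0%, 86.2% and 70.3% of all Tek UMIs of the kept cells in the 4 libraries, while blood endothelial cells held 0.44%, 3.05%, 6.54% and 5.93%. Of the kept cells themselves, mesenchymal cells were 80.8%, 39.0%, 47.3% and 40.3%. Blood endothelial cells were only 0.22%, 0.76%, 1.055% and 0.61%, so these UMI shares also reflect how few of them were captured. The Uninjured library had 4228 mesenchymal cells with Tek. These carried Cdh5, the endothelial cadherin gene, at 0.14 CPM (6 UMIs in all), against 0.93 CPM (34 UMIs) in the 4102 mesenchymal cells without Tek. The 8 endothelial markers summed to 40.5 CPM in the cells with Tek and 22.5 CPM in those without. In blood endothelial cells of the same library these markers summed to 7352 CPM.

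Pgf, which encodes the placental growth factor, was lower at each successive time point in mesenchymal cells. Its level was 67.6 CPM (65.8 to 69.5), 35.1 CPM, 16.3 CPM and 7.21 CPM (6.50 to 7.97) in the Uninjured, 1, 3 and 7 dpi libraries. Against the Uninjured library it was 1.93-fold lower at 1 dpi, 4.14-fold lower (3.86 to 4.45) at 3 dpi and 9.38-fold lower (8.46 to 10.4) at 7 dpi. Its measured level in B cells was at most 3.02 CPM in any library. At 7 dpi the B cells had 0 Pgf UMIs, so at that depth they set no tight limit on background. Mesenchymal cells held 97.3% of the Pgf UMIs of the Uninjured library and 41.8% of those at 7 dpi, when mural cells, 2.88% of the kept cells, held 30.9%.

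Vegfa was at 91.0 CPM (88.9 to 93.1), 91.5 CPM, 53.6 CPM and 49.2 CPM (47.3 to 51.1) in mesenchymal cells of the 4 libraries. The Uninjured and 1 dpi levels overlapped, and the 3 and 7 dpi levels lay below both, by 1.70-fold and 1.85-fold from the Uninjured level, short of a call. In B cells Vegfa was at 16.6, 21.4, 36.4 and 2.49 CPM, so the mesenchymal level exceeded that of B cells in all 4 libraries, by the least at 3 dpi. Mesenchymal cells held 93.4% of Vegfa UMIs in the Uninjured library and 59.2% at 7 dpi. Chondrocytes held 21.9% at 7 dpi, below their 26.1% of the kept cells. Vegfb followed another course, with 26.0, 17.3, 13.5 and 23.1 CPM. It was 1.93-fold lower at 3 dpi than in the Uninjured library and 1.72-fold higher at 7 dpi than at 3 dpi, neither difference being called. B cells had 10, 45, 6 and 4 Vegfb UMIs. The mesenchymal Vegfb level was called higher than that of B cells at 3 and 7 dpi only, beside 45.0% and 38.3% of all genes.

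Vegfd and Vegfc, the lymphatic ligand genes, followed other courses than Pgf. Vegfd was at 34.1, 58.6, 58.1 and 28.1 CPM, and was 1.72-fold higher (1.62 to 1.82) at 1 dpi than Uninjured, short of a call, and 2.07-fold lower at 7 dpi than at 3 dpi, a called difference beside 19.0% of all genes between those libraries. Vegfc was at 7.05, 8.86, 8.69 and 6.85 CPM, a narrow range over all 4 libraries. Angpt1 was at 34.5, 35.4, 28.8 and 17.9 CPM, and its 7 dpi level was 1.93-fold lower than the Uninjured level, again short of a call.

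Angpt2 was nearly absent from mesenchymal cells until 7 dpi. It had 25, 10, 26 and 214 UMIs in them, or 0.32, 0.28, 0.47 and 4.04 CPM, and the 7 dpi level was 12.7-fold higher (8.37 to 20.1) than the Uninjured level. The 214 UMIs came from 170 of the 8189 cells, 2.08% of them and 0.45% after thinning. The 8 mural markers summed to 59.2, 39.7, 35.7 and 141.2 CPM in mesenchymal cells of the 4 libraries. The part of mural RNA in the Angpt2 level was not tested. B cells had 0 Angpt2 UMIs in all 4 libraries, which at 7 dpi left room for up to 9.17 CPM, so at that depth the B cells set no tight limit on background. The receptor genes Flt1 and Kdr were low in mesenchymal cells, with Flt1 at 0.53, 1.45, 1.38 and 1.81 CPM and Kdr at 1.91, 0.57, 0.58 and 1.30 CPM. B cells had Flt1 at 0, 0.62, 6.22 and 0 CPM, the value at 3 dpi being 7 UMIs of 1 cell. They had Kdr at 1.51, 0.82, 0.89 and 0 CPM, on 1, 4, 1 and 0 UMIs. With so few UMIs, the B cells set no tight limit on background for these receptors either. The mesenchymal calls for Flt1 and Kdr lay at trace levels and were not read as expression.

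**Figure D2:**
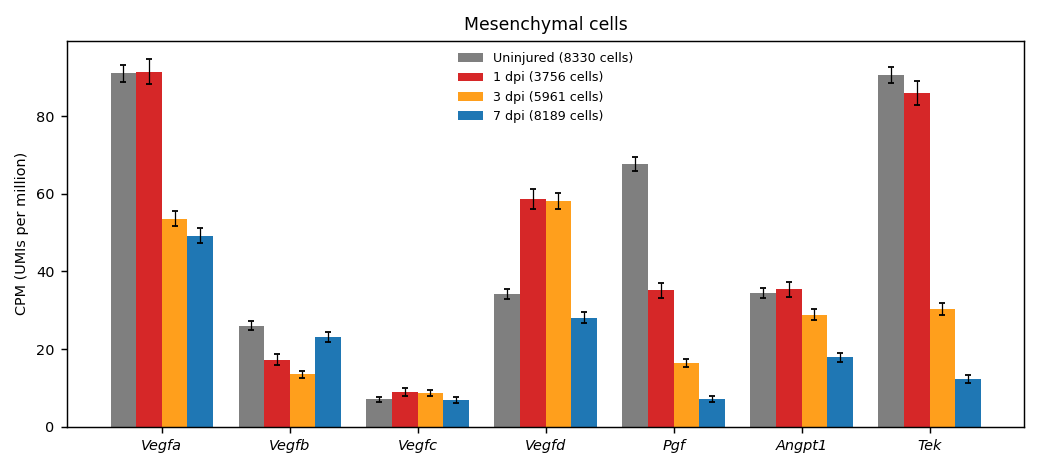
Bars give the level (CPM) of 7 genes in mesenchymal cells of the Uninjured, 1, 3 and 7 dpi libraries, with lines for the 95% Poisson interval of the UMI count. Pgf and Tek dropped to 7.21 and 12.3 CPM at 7 dpi, whereas Vegfd peaked at 1 and 3 dpi and Vegfc lay between 6.85 and 8.86 CPM.

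Mesenchymal cells were then grouped by pairs of genes that mark known fibroblast states, and a cell belonged to a subset when it had a UMI of both genes. The subsets share cells, with 1121, 602, 949 and 928 cells in more than 1 of them, and 688, 243, 199 and 101 cells in both Pi16 Dpp4 and Smoc2 Col15a1. Pi16 Dpp4 cells (3306, 1107, 1053 and 431 cells) match the adventitial fibroblasts of many tissues, and Smoc2 Col15a1 cells (4909, 2186, 2497 and 1503) the fibroblasts of the tissue stroma. Lrrc15 Tnn cells (0, 6, 217 and 1758) and Tnmd Thbs4 cells (146, 56, 145 and 1355), the latter with tendon genes, were most frequent at 7 dpi. Because both genes had to be detected, subset sizes also depend on depth.

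Tek was highest in Pi16 Dpp4 cells, at 119.5, 128.3, 69.5 and 43.9 CPM, and was at 75.3, 77.6, 31.3 and 21.5 CPM in Smoc2 Col15a1 cells. The Pi16 Dpp4 level was the higher in every library, by 1.59-fold, 1.65-fold, 2.22-fold and 2.04-fold. The difference was present inside both subsets and was smaller there than over all mesenchymal cells, with Tek 2.72-fold lower (2.34 to 3.18) in Pi16 Dpp4 cells and 3.50-fold lower (3.07 to 4.01) in Smoc2 Col15a1 cells at 7 dpi than Uninjured. With the cells in both subsets left out, a step chosen after seeing the data, Tek was 1.79-fold, 1.85-fold, 2.64-fold and 2.23-fold higher in Pi16 Dpp4 cells in the 4 libraries, and from Uninjured to 7 dpi it was 2.98-fold lower in Pi16 Dpp4 and 3.73-fold lower in Smoc2 Col15a1 cells. In Lrrc15 Tnn cells Tek was at 2.11 CPM at 3 dpi and 4.13 CPM at 7 dpi, and in Tnmd Thbs4 cells at 6.66 CPM at 7 dpi. These 2 subsets, low in Tek, were those with more cells at 7 dpi.

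Pgf had no fixed order between these subsets. In Pi16 Dpp4 cells it was at 79.5, 32.2, 30.3 and 16.8 CPM and in Smoc2 Col15a1 cells at 65.2, 39.6, 21.2 and 12.8 CPM. The Pi16 Dpp4 level was 1.22-fold and 1.43-fold the higher in the Uninjured and 3 dpi libraries and 1.23-fold the lower at 1 dpi, and at 7 dpi the interval of the ratio (0.97 to 1.76) spanned 1. From Uninjured to 7 dpi it was 4.74-fold lower (3.73 to 6.12) in the former and 5.09-fold lower (4.30 to 6.07) in the latter, 2 differences whose intervals overlapped. Without the cells in both subsets the differences were 6.36-fold (4.62 to 9.01) and 5.56-fold (4.6 to 6.79). In Lrrc15 Tnn cells Pgf was at 3.68 CPM at 7 dpi.

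Vegfd and Angpt1 divided the 2 main subsets in opposite directions. Vegfd was at 55.3, 115.3, 106.8 and 92.5 CPM in Pi16 Dpp4 cells and at 14.6, 23.0, 39.0 and 24.5 CPM in Smoc2 Col15a1 cells, and the Pi16 Dpp4 level was 3.79-fold, 5.02-fold, 2.73-fold and 3.77-fold the higher. Inside both subsets Vegfd stayed above its Uninjured level at 7 dpi, by 1.67-fold (1.49 to 1.87) and 1.68-fold (1.46 to 1.94), and was 1.15-fold and 1.59-fold lower at 7 than at 3 dpi, so the called difference over all mesenchymal cells was not reached in either. Angpt1 was at 15.5, 19.8, 25.1 and 11.3 CPM in Pi16 Dpp4 cells, and was 3.00-fold, 2.25-fold, 1.51-fold and 2.34-fold lower there than in Smoc2 Col15a1 cells. Without the cells in both subsets, Vegfd was 5.61-fold, 7.43-fold, 3.40-fold and 4.94-fold higher and Angpt1 4.31-fold, 2.83-fold, 1.74-fold and 3.74-fold lower in Pi16 Dpp4 cells. C7 Gdf10 cells had Vegfd at 69.9, 106.1 and 129.6 CPM in the Uninjured, 1 and 3 dpi libraries, and only 25 such cells were left at 7 dpi. Vegfa differed little between the main subsets, with 91.2 and 91.5 CPM in the Uninjured library and 58.7 and 49.6 CPM at 7 dpi. Angpt2 at 7 dpi was counted in Smoc2 Col15a1, Tnmd Thbs4 and Lrrc15 Tnn cells at 3.54, 3.58 and 2.77 CPM, and in Pi16 Dpp4 cells at 1.23 CPM. Each of these levels lay below that over all mesenchymal cells of the library.

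**Figure D3:**
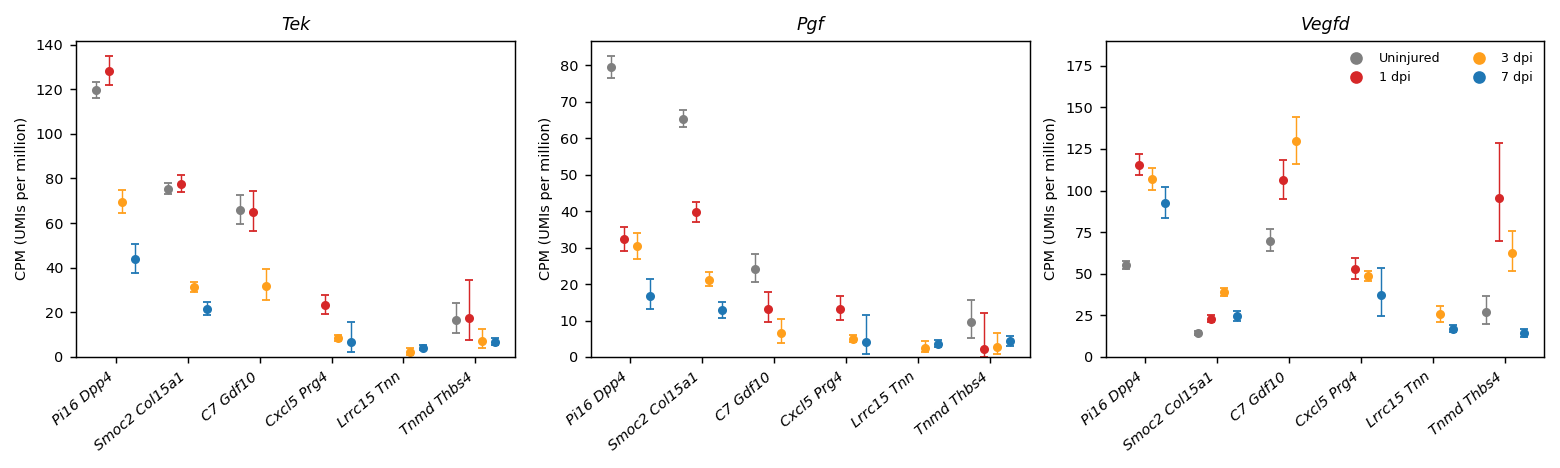
Points give the level (CPM) of Tek, Pgf and Vegfd in mesenchymal subsets defined by a UMI of both genes named on the axis, in each library with at least 50 such cells, with 95% Poisson intervals. Tek and Pgf were lower at 7 dpi than Uninjured within both main subsets, and Vegfd was higher in Pi16 Dpp4 than in Smoc2 Col15a1 cells in all 4 libraries.

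Of 18 further genes of the pathway, 14 had enough UMIs in mesenchymal cells at 7 dpi against Uninjured, and 9 were called higher and 2 lower, beside 18.0% and 11.3% of all genes. Some of these calls rest on trace levels, with Ptprb at 0.23 CPM Uninjured and 1.42 CPM at 7 dpi and Esm1 at 3 and 35 UMIs. Others had more UMIs, with Unc5b at 215 and 1052 (7.26-fold higher), Cxcr4 at 113 and 277 (3.64-fold) and Apln at 95 and 278 (4.34-fold). Apln was at 1.21, 1.40, 15.1 and 5.24 CPM in the 4 libraries. Of the co-receptors, Nrp2, a neuropilin that binds VEGF-C, rose from 8.95 CPM through 20.9 and 24.1 CPM to 85.7 CPM, 9.57-fold (8.84 to 10.4). Nrp1, the neuropilin that binds VEGF-A, was at 69.9, 86.8, 139.3 and 99.4 CPM, and no time point reached 2-fold against Uninjured. Of the hypoxia genes, Hif1a, which encodes an oxygen-regulated transcription factor, was at 93.1, 122.7, 310.1 and 219.9 CPM and rose at 3 and 7 dpi. Its target Slc2a1, a glucose transporter gene, was at 5.06, 10.5, 17.0 and 13.5 CPM and rose at all 3 time points. Adm, which encodes the vessel-dilating peptide adrenomedullin and is also hypoxia-induced, was at 189.8, 169.5, 160.3 and 27.4 CPM and was 6.94-fold lower at 7 dpi. Epas1, the sister gene of Hif1a, was 2.15-fold lower at 7 dpi, and Egln3, a further target, was 1.77-fold lower at 3 dpi on 36 and 91 UMIs, short of a call. Bnip3, another hypoxia gene, was at 18.5, 14.8, 20.9 and 42.9 CPM and was 2.32-fold higher (2.17 to 2.48) at 7 dpi. The hypoxia genes thus did not move as a group, with Hif1a, Slc2a1 and Bnip3 called higher and Adm and Epas1 called lower at 7 dpi.

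At 7 dpi chondrocytes, gated by Acan, Sox9, Col9a1 and 5 further markers, were compared with the mesenchymal cells of the same library. Of the 10 genes, 3 were called, all lower in chondrocytes (Vegfc, Vegfd and Tek), beside 12.3% of all genes tested. Chondrocyte levels were 2.81 CPM for Vegfc, 12.1 CPM for Vegfd and 4.79 CPM for Tek, which were 2.43-fold (1.87 to 3.21), 2.33-fold (2.06 to 2.66) and 2.57-fold (2.10 to 3.16) lower. Vegfa was at 40.4 CPM in chondrocytes against 49.2 CPM in mesenchymal cells, and Angpt1 at 18.2 against 17.9 CPM. After thinning, and with the mean CPM per cell, only Tek of the 3 stayed past 2-fold, with log2 ratios of −1.12 and −1.25.

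Within chondrocytes, cells were split by UMIs of Col10a1, the collagen gene of hypertrophic cartilage. Vegfa was at 36.7 CPM in 4071 cells with 0 Col10a1 UMIs, 46.0 CPM in 533 cells with 1 to 2, and 55.0 CPM in 692 cells with 3 or more, where the intervals of neighbouring bins overlapped. The highest bin exceeded the lowest 1.5-fold (1.27 to 1.76). Pgf, at 4.96, 5.25 and 1.95 CPM on 88, 13 and 7 UMIs, was 2.54-fold lower (1.18 to 6.50) in the highest than in the lowest bin. Hypertrophic cartilage is known to secrete VEGF-A before vessels invade it.

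Blood endothelial cells, the class in which the receptor genes are known to act, had all 3 of them at high levels. Flt1 was at 790.9 CPM (642.1 to 963.9), 1344, 1049 and 481.2 CPM (424.3 to 543.6), Kdr at 298.6, 362.7, 238.1 and 309.6 CPM, and Tek at 258.3, 241.0, 251.9 and 102.6 CPM in the Uninjured, 1, 3 and 7 dpi libraries. Flt1 was highest at 1 dpi and lowest at 7 dpi, while Kdr kept within overlapping intervals in the Uninjured, 1 and 7 dpi libraries. Against mesenchymal cells of the Uninjured library, Flt1 was 1481-fold, Kdr 156.5-fold, Vegfc 20.6-fold and Tek 2.85-fold higher. Of the 10 genes, 7 were called, 5 higher and 2 lower (Vegfd and Pgf), beside 29.1% of all genes. The calls for Angpt2, Vegfd and Pgf rest on 2, 1 and 0 UMIs in the endothelial cells. Tek thus marked blood endothelial cells far less sharply than Flt1 or Kdr did.

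At 7 dpi against 3 dpi, the pair of time points with the most endothelial cells, 5 of 6 genes tested were called and all 5 were lower (Vegfa, Vegfc, Flt1, Angpt1 and Tek), beside 19.5% of all genes either way and 11.4% lower. Vegfc was at 145.3, 126.6, 99.2 and 20.5 CPM in the 4 libraries and was 4.84-fold lower (2.48 to 10.3) at 7 than at 3 dpi. Tek was 2.46-fold lower (1.78 to 3.44) and Flt1 2.18-fold lower (1.88 to 2.54), and Kdr was 1.30-fold higher (1.02 to 1.66). The direction for Kdr was not stable, with log2 ratios of 0.38 over summed UMIs, −0.26 after thinning and −0.06 with the mean CPM per cell. Vegfa rested on 14, 23, 37 and 13 UMIs in the 4 libraries, at 113.0, 56.0, 73.4 and 24.3 CPM, and was 3.03-fold lower (1.57 to 6.21). Angpt1 rested on 3, 23, 19 and 2 UMIs. The 7 endothelial cells with Angpt1 at 1 dpi had a median of 16013 UMIs and Kit at 202.5 CPM, and carried Cdh5 at 96.4 CPM against 1162 CPM in those without. At 3 dpi the 10 cells with Angpt1 had a median of 7412.5 UMIs, against 2087 in those without. They had Kit at 150.3 CPM, 0 Kdr UMIs, and Cdh5 at 313.1 CPM against 709.5 CPM in those without. What the cells with Angpt1 are was not tested. After thinning, the direction for Angpt1 at 1 dpi against Uninjured turned. Against the Uninjured library of 23 endothelial cells, 2 of 6 genes were called at 1 dpi (Angpt1 higher, Vegfa lower) beside 21.3% of all genes, 0 of 6 at 3 dpi beside 21.1%, and 3 of 5 at 7 dpi (Vegfa, Vegfc and Tek lower) beside 24.6%. After thinning, 0 genes were called at 1 and at 7 dpi.

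Markers of other classes moved with these differences. In blood endothelial cells the 8 endothelial markers summed to 7352, 5859, 4741 and 4105 CPM, the 8 mural markers to 137.2, 175.3, 182.5 and 852.3 CPM, the mesenchymal markers to 24.2, 34.1, 246.0 and 634.1 CPM, and the chondrocyte markers to 8.07, 0, 7.94 and 387.9 CPM. In the endothelial cells with a Cdh5 UMI (18, 66, 101 and 101 cells), a selection made after these values were seen, Tek was 2.64-fold, Flt1 2.42-fold, Vegfc 5.45-fold and Vegfa 3.15-fold lower at 7 than at 3 dpi. The differences were therefore as large without the cells that lacked Cdh5. Cdh5 is itself a marker of this class, and a cell with it can still hold RNA from other classes. The part of such RNA in these differences was not tested. Arterial cells, with at least 2 of 5 artery markers, numbered 14, 40, 63 and 22.

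Arterial cells had Vegfc at 242.5, 256.0, 191.8 and 43.4 CPM against 0, 4.73, 24.0 and 11.1 CPM in the endothelial cells that were neither arterial nor venous. Tek was at 390.7, 386.5, 420.2 and 167.4 CPM in arterial cells and was 3.72-fold, 3.50-fold and 3.48-fold higher than in those other cells at 1, 3 and 7 dpi. Kdr had the opposite order, at 161.7, 200.8, 86.8 and 235.5 CPM in arterial cells against 530.9, 515.2, 351.9 and 413.8 CPM in the others. Tek was 2.51-fold lower at 7 than at 3 dpi in arterial cells and 2.50-fold lower in the others, while Flt1 was 2.38-fold and 1.60-fold lower. The Tek difference was thus present on both sides of the split.

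Of the 18 pathway genes, 15 were tested in blood endothelial cells between 3 and 7 dpi, and 3 were called higher and 2 lower, beside 8.02% and 11.4% of all genes. Aplnr, the apelin receptor gene of sprouting and venous endothelium, was at 64.6, 43.8, 13.9 and 251.8 CPM, and its ligand gene Apln, a tip cell gene, had UMIs in this class at 7 dpi only, at 54.1 CPM. Of the other sprouting genes among the 18, Dll4, Unc5b and Cxcr4 were tested between 3 and 7 dpi and not called. Kcne3 and Esm1 had too few UMIs to be tested. Dll4 was at 89.3 and 70.9 CPM, Unc5b at 29.8 and 28.0 CPM and Cxcr4 at 23.8 and 24.25 CPM. Kcne3 was at 23.8 and 7.46 CPM, on 12 and 4 UMIs. Esm1 was at 64.6 CPM Uninjured, 9.92 CPM at 3 dpi and 11.2 CPM at 7 dpi, on 8, 5 and 6 UMIs. Nrp2 was at 40.4, 80.3, 55.6 and 199.6 CPM. Ptprb, the phosphatase gene whose product restrains TEK, was at 1558, 1711, 1645 and 617.3 CPM, and so was lowest in the library where Tek was lowest. Tie1, the sister receptor gene of Tek, was at 242.1, 255.6, 230.1 and 207.0 CPM and was not called.

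Mural cells, which wrap the endothelium, differed between the Uninjured and 7 dpi libraries in 2 of 7 genes tested, Flt1 higher and Vegfb lower, beside 32.8% of all genes. The median log2 ratio over all genes was 0.20 in this comparison. Flt1 had 4 UMIs in the Uninjured library and 214 at 7 dpi, or 3.84 CPM (1.05 to 9.82) and 65.4 CPM (56.9 to 74.8), 17.1-fold higher (6.56 to 63.1). The 1 and 3 dpi libraries, with 20 and 27 mural cells, had 8 and 3 UMIs. A Flt1 UMI was present in 3.2% of Uninjured and 17.4% of 7 dpi mural cells, at median depths of 8324 and 3985 UMIs, and in 0.80% and 4.55% after thinning, while it was present in 0 B cells of either library, which allows up to 5.57 and 9.17 CPM there. After thinning the log2 ratio of the Flt1 level was 2.57 instead of 4.09.

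The 102 mural cells with Flt1 at 7 dpi held 2 Cdh5 UMIs, 6 Pecam1 UMIs and 1 Kdr UMI in all, and had a median of 8749 UMIs against 3532 in mural cells without Flt1. In the mural class, 4 of the 8 endothelial markers were detected in the Uninjured and 7 of the 8 in the 7 dpi library, summing to 243.6 and 229.8 CPM, with Cdh5, Pecam1, Cldn5 and Robo4 at 0 in the former and Robo4 at 0 in the latter. Flt1 was counted almost wholly in mural cells with Rgs5, a pericyte gene, with 213 UMIs in the 479 cells with Rgs5 and 1 UMI in the 106 cells without at 7 dpi. The Uninjured library had only 23 mural cells with Rgs5, and among cells with Rgs5 Flt1 was at 21.3 and 76.2 CPM, 3.58-fold higher (1.21 to 17.5) at 7 dpi. This split was made after the values were seen. The Uninjured and 7 dpi mural classes thus differed in makeup, and the ratio within cells with Rgs5 was the smaller.

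Angpt2, which mural cells and sprouting endothelium are known to make, had 44, 6, 7 and 223 UMIs in mural cells, or 42.2, 33.2, 42.1 and 68.1 CPM, and was 1.62-fold higher (1.17 to 2.29) at 7 dpi than Uninjured, short of a call. Mural cells held 48.4% of the Angpt2 UMIs of the Uninjured library while being 1.21% of its cells, and 36.6% of those at 7 dpi. Within cells with Rgs5 its level was 92.4 CPM Uninjured and 75.5 CPM at 7 dpi, so the direction turned. Pgf was at 80.6 CPM Uninjured and 86.2 CPM at 7 dpi in mural cells, with overlapping intervals, in the same libraries in which it fell in mesenchymal cells. Within cells with Rgs5 its log2 ratio was −0.51, and with the mean CPM per cell −0.56. Vegfb was at 92.1 and 35.8 CPM, 2.58-fold lower (1.95 to 3.40), but at 35.5 and 31.1 CPM within cells with Rgs5.

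**Figure D4:**
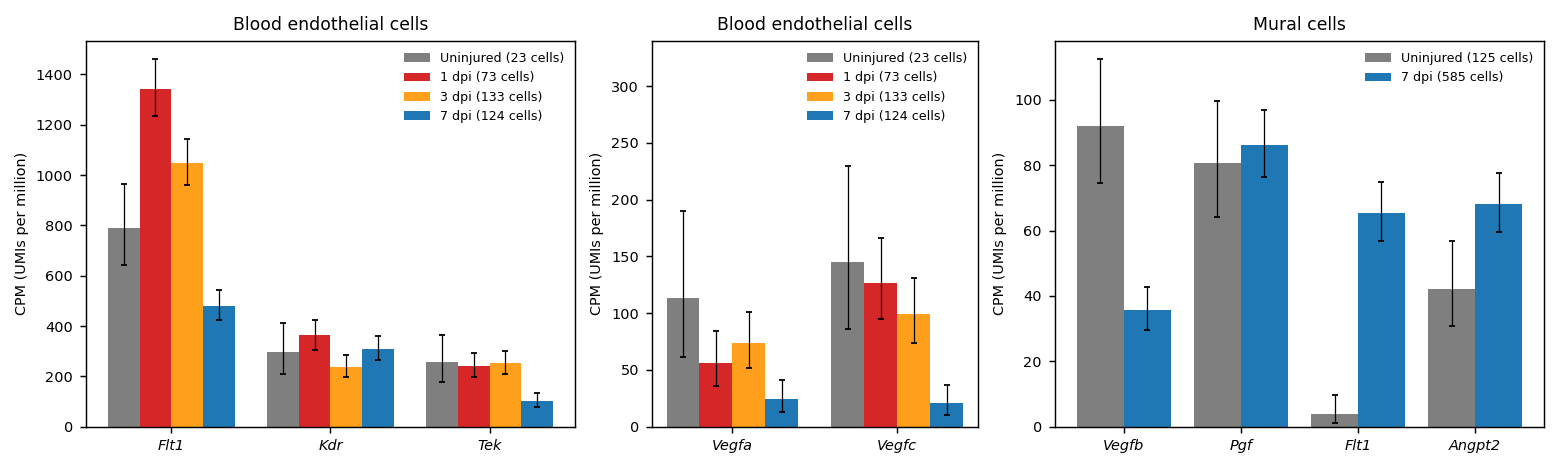
Bars give the level (CPM) of receptor genes (left) and ligand genes (middle) in blood endothelial cells of the 4 libraries, and of 4 genes in mural cells of the Uninjured and 7 dpi libraries (right), with 95% Poisson intervals and cell numbers in the legends. Flt1, Tek and Vegfc were lower at 7 dpi than at 3 dpi in endothelial cells while Kdr was 1.30-fold higher, a direction that turned after thinning, and Flt1 was higher at 7 dpi in mural cells.

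Monocytes and macrophages had Vegfa at 64.8, 59.1, 55.7 and 28.3 CPM, and the 7 dpi level alone was called lower among 3 genes tested there, beside 11.9% of all genes. At 1 dpi 4 of 8 genes tested were called, Flt1, Kdr and Angpt2 higher and Tek lower, beside 22.6% of all genes. Kdr had 0, 263, 42 and 3 UMIs in the 4 libraries, or 0, 18.6, 7.45 and 1.54 CPM, and was at least 17.9-fold higher at 1 dpi than Uninjured when the latter was set to 3 UMIs per library. These UMIs came from 162 of 1801 cells, 9.0% of them at a median depth of 7571 UMIs and 2.22% after thinning, whereas 0.29% of 1 dpi B cells had a Kdr UMI at a median depth of 2844 UMIs and 0.07% after thinning.

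The macrophage-gated cells with Kdr at 1 dpi held 2 Cdh5 UMIs in all, and the 8 endothelial markers summed to 5.47 CPM in them against 8.66 CPM in the cells without Kdr. Flt1, known in monocytes as the receptor for their migration towards VEGF-A, was at 6.24, 20.9, 3.55 and 7.71 CPM and was 3.35-fold higher (2.08 to 5.73) at 1 dpi. It was detected in 12.4% of the 1 dpi cells with Kdr and 9.82% of those without, at median depths of 8649 and 7477 UMIs. The Flt1 level was alike in both, at 20.51 and 20.95 CPM. Angpt2 had 2, 68, 3 and 4 UMIs and was 6.93-fold higher (1.85 to 58.4) at 1 dpi. This class, 18.7% of the kept cells at 1 dpi, held 68.7% of the Angpt2 UMIs of that library. Mural cells, only 0.21% of the kept cells there, held 6.06%, so these shares also reflect how few mural cells were captured. Tek, at 24 UMIs at 1 dpi and 10 in the Uninjured library, was at 1.70 CPM and 3.47 CPM, below the 3.92 CPM and 4.53 CPM of B cells in the same libraries, and was not read as expression. Its direction turned with the mean CPM per cell.

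**Figure D5:**
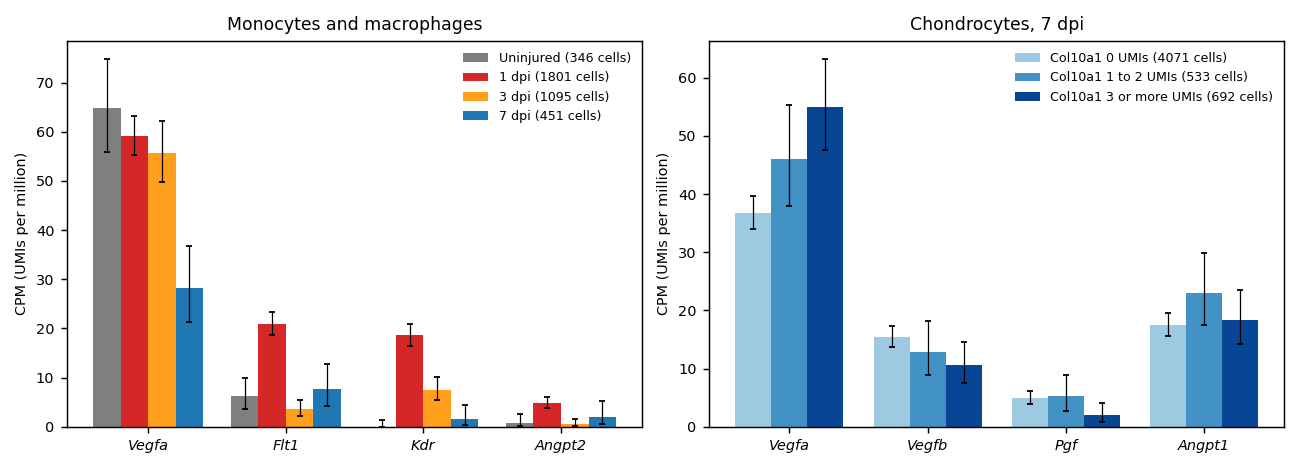
Left, the level (CPM) of 4 genes in monocytes and macrophages of the 4 libraries. Right, the level of 4 genes in 7 dpi chondrocytes with 0, 1 to 2, and 3 or more Col10a1 UMIs, with 95% Poisson intervals in both panels. Kdr and Flt1 were highest at 1 dpi in macrophages, and Vegfa was 36.7, 46.0 and 55.0 CPM over the Col10a1 bins.

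Among the other blood cell classes, neutrophils had Vegfa at 46.6, 76.4, 48.7 and 159.9 CPM on 12, 220, 50 and 28 UMIs, 3.43-fold higher (1.69 to 7.41) at 7 dpi than Uninjured, with 16 of 106 cells carrying it and beside 21.3% of all genes called. Mesenchymal markers summed to 89.3 CPM and chondrocyte markers to 3.88 CPM in Uninjured neutrophils, against 199.9 and 222.7 CPM at 7 dpi, and their part in the Vegfa level was not tested. Mast cells had Angpt1 at 158.7, 86.3 and 14.3 CPM at 1, 3 and 7 dpi, on 60, 23 and 4 UMIs. Their gate took in far more mesenchymal marker RNA at 7 dpi, 1363 CPM against 31.7 CPM at 1 dpi. Granulocyte progenitors had Angpt1 at 34.8 CPM at 1 dpi, from 31 of 156 cells, and 19.6 CPM at 3 dpi. Dendritic cells had Kdr at 27.0 CPM at 3 dpi, on 63 UMIs in 32 of 366 cells, and Siglech, a plasmacytoid dendritic cell gene, was detected in 65.6% of the cells with Kdr against 25.5% of those without. NK and T cells had Vegfc at 4.50, 7.72, 10.2 and 9.16 CPM. In this class 4 of 5 genes tested (Vegfa, Vegfc, Vegfd and Angpt1) were called higher at 3 dpi than Uninjured. Beside them, 22.9% of all genes were called either way and 19.8% higher, with a median log2 ratio of all genes of 0.41. Vegfd and Angpt1 rested on 2 and 5 UMIs Uninjured and 21 and 29 at 3 dpi. The part of RNA from other cells in these calls was not tested.

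In muscle cells Vegfa was at 72.5, 59.0, 40.5 and 34.5 CPM and fell at 7 dpi together with Tek, 2 of 3 genes tested, beside 11.5% of all genes. Tek was at 21.8, 35.4, 6.15 and 4.31 CPM in these cells. Vegfb was at 34.6, 13.8, 29.0 and 30.9 CPM and was called lower at 1 dpi, on 54 UMIs Uninjured and 7 at 1 dpi, beside 31.2% of all genes. Vegfc was at 3.85, 0, 10.3 and 7.90 CPM, and rose at 3 dpi with Angpt1 while Tek fell, beside 33.7%. Vegfc and Angpt1 rested on 6 and 3 UMIs Uninjured and 60 and 33 at 3 dpi. Lymphatic endothelial cells, with only 2, 0, 16 and 6 cells, had Kdr at 956.5 CPM (722.5 to 1242) in 14 of 16 cells at 3 dpi, above the 238.1 CPM of blood endothelial cells in that library.

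The genes whose pattern was most like each member were sought by Pearson's r of log2(CPM + 10) over the 41 class and library combinations of at least 50 cells. These combinations share libraries and depth, so the values are descriptions. The receptor genes ran with genes of vessels, Flt1 most with Adgrf5 (r = 0.97) and Kdr with Notch4 (r = 0.93). Tek ran most with Galnt15 (r = 0.91), Vegfd with C1ra (r = 0.92), Vegfc with F2rl1 (r = 0.91) and Pgf with Pi15 (r = 0.90). Vegfb ran most with Cisd1 (r = 0.89) and then with the respiratory chain genes Ndufa5 and Ndufs7, Angpt2 with Parm1 (r = 0.88), and Angpt1 with Meis1 (r = 0.86). Vegfa had the weakest best match, Mir22hg (r = 0.70), among the 8067 genes searched.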

How the data were processed

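Single-cell suspensions from 4 pools of 3 tibial muscles were sequenced by the authors on the 10x Genomics platform. The deposited matrices hold raw UMI counts per gene and barcode. Per the labels, Cell Ranger 5.0.0 made them, with Seurat 3.1.1 and the mm10 build named in the submitters' processing notes. Reads could be down-sampled for aggregation in that pipeline, at a stage not given in the sources used here. The matrices held 12031, 11722, 15160 and 23752 barcodes and 112317902, 91146335, 116346301 and 129007669 UMIs (Uninjured, 1, 3 and 7 dpi).

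Barcodes within 2 SD of the library mean in log10 UMIs and genes and with at most 10% mitochondrial UMIs were kept, and the 7.5% with the highest Scrublet score were removed (scanpy 1.11.5, Python 3.11.15), because the automatic threshold could not be relied on. A cell joined the class with the most markers detected, at least 2 and more than any other class, and cells without such a class were left ungated. Counts were summed per class and library and expressed as CPM. Levels have exact Poisson intervals, shares exact Clopper-Pearson intervals and ratios exact conditional binomial intervals, all at 95% and for counting error only. A count of 0 was set to 3 UMIs for ratios. Genes with at least 20 UMIs over both libraries counted as called at 2-fold. Cells were thinned to 1000 UMIs where shares are compared. The scripts were tested on simulated data.

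The 10 genes were given by symbol and described in every class, with 18 pathway genes and, for each gene, the 3 with the highest Pearson correlation among genes reaching 50 CPM in a combination of at least 50 cells, gate markers left out. The genes, markers and lists were chosen with earlier results of these data known. Gene positions came from an annotation of GRCm38, in which 32158 of the 32285 gene IDs (99.6%) were found. Promoter windows came from RefSeq (GRCm38.p6). Alternatives were other cell filters, doublets left in, a stricter gate, other scalings, thinning, other count minimums and a 1.5-fold call.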

Additional observations from a re-analysis of the deposited data

Results flagged for a closer look

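Some genes differed from the Uninjured library in opposite directions in different cell classes of the same libraries. These differences between classes were not tested, since each time point was 1 library. At 1 dpi the Kdr level was at least 17.9 times that of the Uninjured library in monocytes and macrophages (the latter set to 3 UMIs) and 0.30 times (0.2987) in mesenchymal cells. At 3 dpi the Kdr level was at least 7.16 times the Uninjured level, again set to 3 UMIs, in the former and 0.30 times (0.3039) in the latter. In mesenchymal cells Kdr was near its level in B cells, with 150 UMIs Uninjured and 20 and 32 UMIs at 1 and 3 dpi. The B cell levels rest on only 1, 4 and 1 UMIs in these libraries. At 7 dpi the Vegfa level was 3.43 times the Uninjured level in neutrophils, on 28 and 12 UMIs, and 0.44 times in monocytes and macrophages and 0.48 times in muscle cells.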

How the results depend on the processing

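No paired analysis was possible because each time point had a single library, and for the same reason no replicate could be left out. The 4 genes called in mesenchymal cells at 7 dpi stayed 4 in number or within 1.5 times under every alternative run. The 4 at 3 dpi became 2 after thinning and 7 with a 1.5-fold call. The 2 at 1 dpi became 1 after thinning, with the mean CPM per cell and with at least 100 UMIs, and 5 with a 1.5-fold call. In blood endothelial cells the 2 called at 1 dpi became 1 with linear cell limits or with doublets left in, and 0 with the stricter gate, after thinning, with at least 100 UMIs, and in the cells with Cdh5 (added after seeing the data). The 0 at 3 dpi became 1 with the mean CPM per cell, 1 without a count minimum and 2 with a 1.5-fold call. The 3 at 7 dpi became 0 after thinning or with at least 100 UMIs and 5 without a count minimum. The 3 genes lower in chondrocytes became 1 after thinning or with the mean CPM per cell and 8 with a 1.5-fold call. A 1.5-fold call takes in more of all genes too, and the shares of all genes under these alternatives are not given here. The counts under the alternatives were therefore not read as results about the set. Where the number tested fell, as with thinning or at least 100 UMIs, fewer genes could be called, and otherwise the cause was not tested. Of 201 values of genes past 2-fold under an alternative, 156 stayed within the counting interval, 43 moved further and 2 reversed. The reversed ones were Angpt1 in blood endothelial cells at 1 dpi, at a log2 ratio of −0.65 after thinning, and Tek in monocytes and macrophages at 1 dpi, at 0.16 with the mean CPM per cell.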
